A study of Mus musculus with 17 samples.

Results

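The p53 pathway and its target genes were examined in islets of mice with altered *Pax4*, a transcription factor of the β cell lineage. The group consists of 33 genes, chosen by name as p53, its regulators and its established transcriptional targets, out of 78239 gene identifiers in the first table and 73212 in the second. Each of the 33 was present in both tables by its Ensembl identifier. Bulk RNA sequencing of isolated pancreatic islets from 17 male mice was deposited as these 2 tables of expected counts, which were normalized separately, so that levels are compared within a table. The first table holds wildtype (WT) mice and littermates homozygous for *Pax4* R192H, a knock-in of the R200H substitution into the endogenous mouse gene that corresponds to human R192H, on the C57BL6/N background. Of each of these genotypes 3 mice were fed a standard chow diet (SCD) until 12 weeks of age, and 3 were 16 weeks old after 4 weeks of a high-fat diet (HFD). Age therefore differed with diet in this table, and their effects cannot be told apart. The second table holds 3 *Pax4* βiKO mice, which carried homozygous floxed *Pax4* and the tamoxifen-inducible Pdx1-CreERT2 recombinase, and 2 control mice, which carried the same floxed alleles without Cre. Mice of both groups received tamoxifen, and at 20 weeks of age had been fed the HFD for 8 weeks. Since only the βiKO mice had Cre, the recombinase and the loss of *Pax4* cannot be told apart, and Pdx1 is also active outside β cells.

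The protein p53 is a transcription factor that is kept low by the ubiquitin ligase Mdm2 and held inactive by its relative Mdm4. DNA damage and other stresses release it from them, mainly through modification of the protein rather than through its mRNA, and it then induces genes that stop the cell cycle, promote cell death, repair DNA and adjust metabolism, among them *Mdm2* itself. In β cells p53 targets such as *Cdkn1a* are known for restraining replication.

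A mouse of the first table had from 24268157 to 42679645 counts in total, and of the second from 28618835 to 31887537. None of 10 β cell markers was at 0 counts in any mouse, and their summed level ran from 45090 to 110484 CPM, the counts scaled to a common normalized library size, in the first table and from 121889 to 138125 CPM in the second. *Pax4* itself had 0 counts in each of the 17 mice, and neither genotype could be checked on its mRNA in these counts. By quantitative RT-PCR the study reported low *Pax4* mRNA in adult islets, comparable in R192H and WT mice. It reported the deletion in βiKO islets by PCR of genomic DNA and by quantitative RT-PCR. Acinar RNA varied between mice: the summed level of 25 exocrine markers was 106394 CPM in R192H mouse 1 on the HFD, and 38839 and 40641 in the other mice of that group, against between 16988 and 26100 in WT mice on the HFD. In the second table it was 112157 CPM in control mouse 1 and 87202 in βiKO mouse 1, against between 17791 and 25015 in the other 3 mice.

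RefSeq promoters of the GRCm38.p6 assembly, each from 250 bases before to 50 bases after a transcription start, were available for 25 of the 33 genes, with 33 promoters in all. They were searched for the p53 half-site consensus of 10 bases. This consensus reads the same on both strands, so a match on either is counted once, and overlapping matches were allowed. At least 1 match without mismatch was present in 13 of the 33 promoters, which belong to 12 genes (*Aen*, *Bax*, *Ccng1*, *Cdkn1a*, *Ddit4l*, *Ei24*, *Mdm2*, *Pml*, *Polk*, *Ppm1d*, *Sesn1* and *Trp53*), and in 8.36% of all 32851 promoters. A pair of matches without mismatch, 0 to 13 bases apart, was present in 1 of the 2 promoters of *Cdkn1a* and in 0.0731% of all promoters. The other *Cdkn1a* promoter, chr17:29093519-29093818 downstream of the first, held 0 matches even with up to 1 mismatch. With up to 1 mismatch in each, pairs were present for *Ccng1*, *Cdkn1a* and *Pml* and in 2.71% of all promoters. These matches describe letters only, and the promoters of *Eda2r* and *Phlda3* held no match without mismatch in this window, which says nothing of sites elsewhere. The matches are shown for *Ccng1* and *Cdkn1a*, the cell cycle genes with the largest βiKO difference, and for *Mdm2* and *Bax*, which serve as textbook targets, with 30 bases on either side and the matches in capitals.
Ccng1: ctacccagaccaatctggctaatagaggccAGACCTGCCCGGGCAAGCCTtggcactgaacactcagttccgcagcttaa
Cdkn1a: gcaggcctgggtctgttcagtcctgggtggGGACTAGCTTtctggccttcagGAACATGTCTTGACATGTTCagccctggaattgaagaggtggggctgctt
Mdm2: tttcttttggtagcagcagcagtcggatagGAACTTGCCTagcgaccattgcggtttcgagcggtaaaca
Bax: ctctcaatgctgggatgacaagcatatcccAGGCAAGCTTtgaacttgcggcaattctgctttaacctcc
The *Ccng1* stretch is chr11:40755432-40755511 on the minus strand, upstream of the gene, and its pair starts 195 bases before the transcription start with 0 bases between the matches, the second of which is without mismatch. The *Cdkn1a* stretch is chr17:29090876-29090977 on the plus strand. It lies in the upstream promoter and holds a match that starts 73 bases before that promoter's transcription start and, 12 bases after its end, a second that starts 51 bases before it, which a further match with 1 mismatch follows directly. The *Mdm2* stretch is chr10:117710905-117710974 and the *Bax* stretch chr7:45467060-45467129, both on the minus strand, with matches that start 186 and 201 bases before the transcription start.

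The 33 genes covered a wide range of levels, here given as mean CPM per kb of exon. In control islets on the HFD the levels ran from 0.107 for *Gdf15*, a secreted stress cytokine, to 117 ± 27.4 (SD, n = 2) for *Btg2*, an antiproliferative gene. *Ccng1*, which encodes cyclin G1, came second at 54.9 ± 1.80 CPM per kb, below *Btg2* by more than their SDs. *Trp53inp1*, which encodes a stress-induced nuclear partner of p53, followed at 17.1 ± 3.51, and it and *Ei24* at 13.2 ± 0.537 CPM per kb did not differ beyond their SDs. *Trp53* itself had 1.12 ± 0.0381 CPM per kb, and the median gene had 3.29. In WT islets on the SCD the highest levels again belonged to *Btg2* (68.5 ± 8.16 CPM per kb, n = 3), *Ccng1* (31.4 ± 4.46) and *Trp53inp1* (12.6 ± 5.40). There 20 of the 33 genes had over 1 CPM per kb, and *Tnfrsf10b*, a death receptor gene, had the lowest level at 0.0894 ± 0.0413. *Gdf15* had between 0 and 0.349 CPM in the mice of the first table and was not tested there, whereas the other 32 genes were tested in the first table and all 33 in the second.

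**Figure D1:**
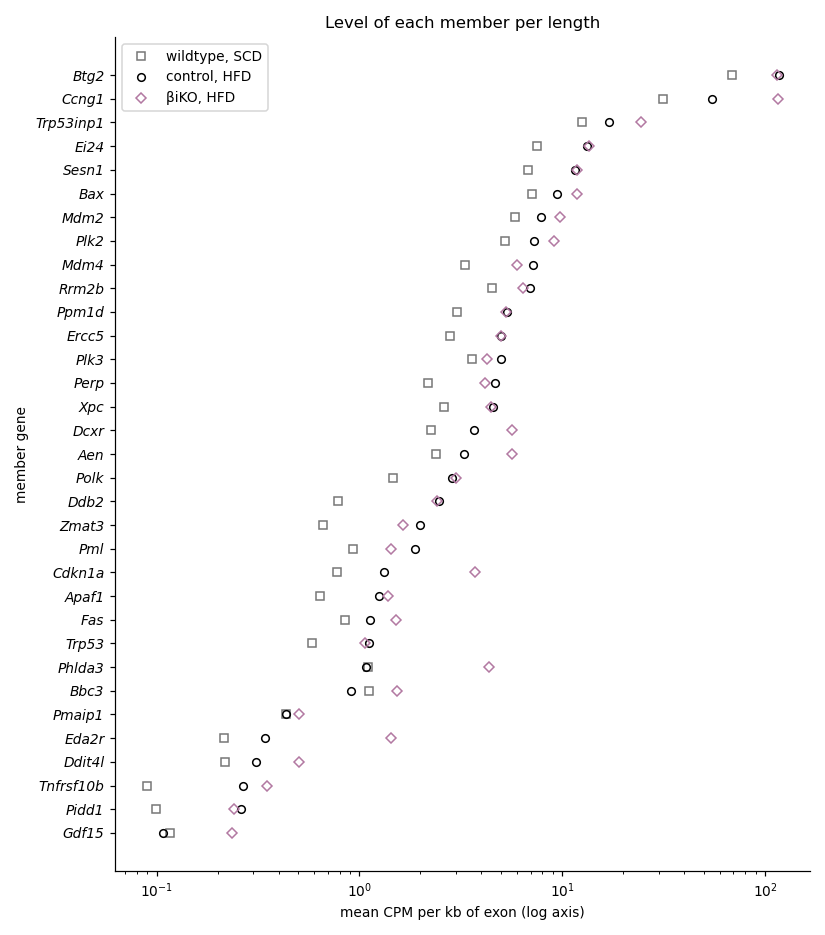
Mean level of each of the 33 genes in CPM per kb of exon (log axis), for WT islets on the SCD (squares, 3 mice), control islets on the HFD (circles, 2 mice) and βiKO islets on the HFD (diamonds, 3 mice). *Btg2* and *Ccng1* lie highest, and the diamonds lie farthest right of the circles for *Eda2r*, *Phlda3*, *Cdkn1a*, *Gdf15* and *Ccng1*.

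The second table answers how islets that lack *Pax4* in adult Pdx1-expressing cells differ from control islets on the HFD. *Ccng1* and *Eda2r*, which encodes a receptor of the tumour necrosis factor family for ectodysplasin A2, were higher in βiKO islets, by 2.11-fold and 4.16-fold. *Phlda3*, an inhibitor of Akt, and *Cdkn1a*, which encodes the cyclin-dependent kinase inhibitor p21, differed by 4.04-fold and 2.84-fold without passing the test, and the mRNA of *Trp53* lay within 4.17 and 4.64 CPM in all 5 mice. A gene was called at an adjusted p-value below 0.05 from edgeR's quasi-likelihood test (Benjamini-Hochberg over all tested genes) and an absolute log2 fold change above 0.5. By this rule 2 of the 33 genes were called, both higher, against 18 of all 20167 tested genes (0.0893%). Whether more of this mRNA per cell or more of the cells that make it lies behind a difference cannot be told apart in bulk islets. Markers of some cell types also separated these groups. As the mean log2 CPM over a list, the β cell markers were between 10.18 and 10.24 in βiKO and between 10.41 and 10.53 in control mice, the α cell markers between 6.56 and 6.67 against 6.25 and 6.40, and the endothelial markers between 5.16 and 5.44 against 5.03 and 5.09. The summed level of the β cell markers overlapped, at 132628 to 138125 CPM in βiKO and 121889 to 132817 CPM in control mice. The T and B cell markers summed to 47.7 CPM in βiKO mouse 3 and to between 1.18 and 4.44 in the other 4 mice. The part of these cells in the differences was not tested.

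Among the cell cycle genes, *Ccng1* (chromosome 11, 40748552 to 40755311, GRCm38) had 417, 418 and 389 CPM in the 3 βiKO mice and 188 and 197 CPM in the 2 controls. Every βiKO mouse lay far above both controls. The log2 fold change was 1.08 ± 0.09 (SE), with an adjusted p of 0.0085 from edgeR. *Cdkn1a* (chromosome 17, 29090976 to 29100727) had 12.8, 15.2 and 11.8 CPM in βiKO and 5.58 and 3.78 CPM in control mice. Its groups did not overlap either, with a log2 fold change of 1.51 ± 0.21 and an adjusted p of 0.0758 from edgeR, which did not pass. *Plk2*, a stress-responsive polo-like kinase gene, had 38.6, 40.5 and 43.2 CPM in βiKO and 39.2 and 25.9 CPM in control mice, and the groups overlapped (log2 fold change 0.33 ± 0.16). Its relative *Plk3* and *Btg2* had log2 fold changes of -0.22 ± 0.20 and -0.03 ± 0.16, with groups that overlapped.

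Of the 13 genes of cell death and its receptors, 11 had a higher mean in βiKO, 1 was called and 6 did not overlap between groups, all 6 higher. Of all tested genes 0.0893% were called there, and 15.9% were higher and 16.7% lower without overlap. *Eda2r* (chromosome X, 97333840 to 97377216) had 6.93, 9.13 and 9.17 CPM in βiKO and 2.12 and 1.92 CPM in control mice. The lowest βiKO mouse was thus well above both controls, with a log2 fold change of 2.06 ± 0.21 and an adjusted p of 0.0234 from edgeR. *Phlda3* (chromosome 1, 135766119 to 135769136) had 5.96, 6.77 and 7.76 CPM in βiKO and 1.38 and 1.99 CPM in control mice. Its groups did not overlap either, with a log2 fold change of 2.02 ± 0.25, but the adjusted p of 0.05001 from edgeR lay just above the threshold. *Aen*, which encodes an apoptosis-enhancing nuclease, had 31.8, 32.1 and 34.5 CPM in βiKO and 15.5 and 22.7 CPM in control mice. Its βiKO mice lay close together above both controls (log2 fold change 0.78 ± 0.16, adjusted p = 0.173 from edgeR). The BH3-only gene *Bbc3* had 2.53, 4.05 and 3.16 CPM against 2.45 and 1.39 in control mice, so that its lowest βiKO mouse and its highest control nearly met. *Trp53inp1* had 142, 189 and 144 CPM in βiKO and 127 and 94.6 CPM in control mice (log2 fold change 0.52 ± 0.17, adjusted p = 0.293 from edgeR). *Bax*, the pore-forming effector of mitochondrial apoptosis, had 18.7, 18.1 and 19.3 CPM in βiKO and 16.5 and 13.4 CPM in control mice. Its groups did not overlap, yet its log2 fold change was only 0.33 ± 0.12, and 0.18 without control mouse 2. The other BH3-only gene, *Pmaip1*, the death receptor genes *Fas* and *Tnfrsf10b*, the apoptosome gene *Apaf1*, and *Perp*, *Pidd1* and *Ei24* overlapped between groups, with log2 fold changes between -0.15 for *Perp* and 0.43 for *Fas*.

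**Figure D2:**
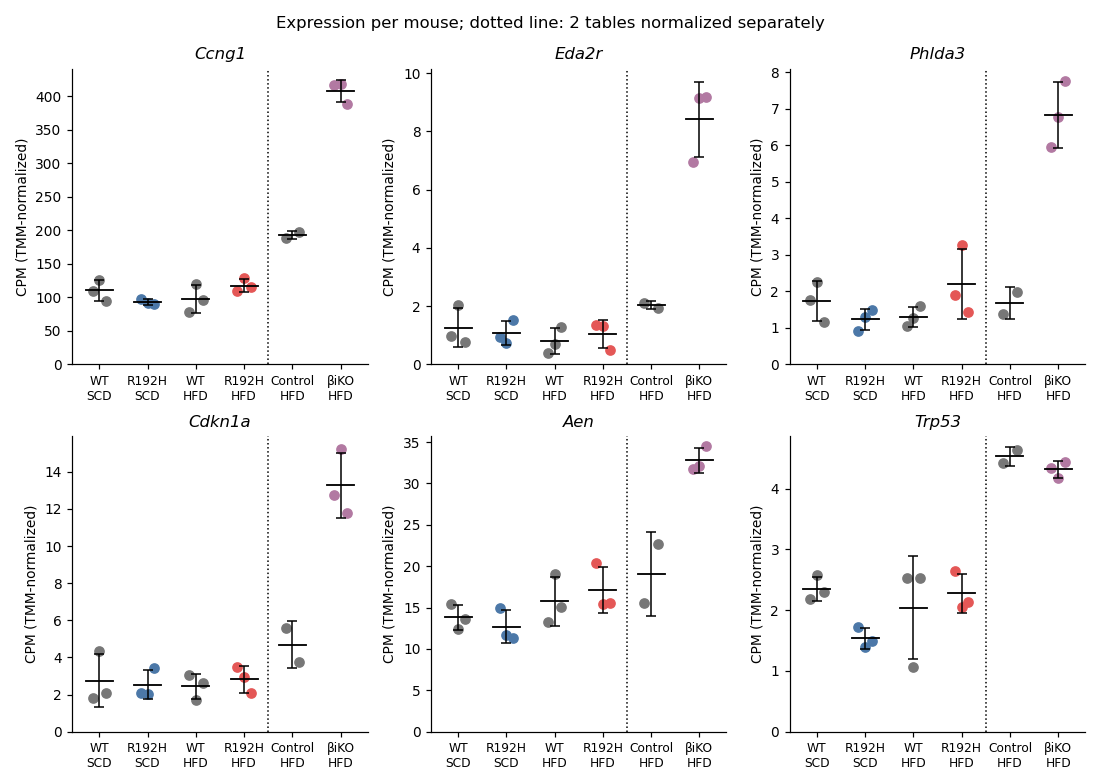
CPM of 6 genes in each mouse (points), with the group mean (line) and SD (bar), in 6 groups; the dotted line separates the 2 tables, which were normalized separately. In the second table the βiKO mice of *Ccng1*, *Eda2r*, *Phlda3*, *Cdkn1a* and *Aen* lie above both controls, while the 5 mice lie between 4.17 and 4.64 CPM for *Trp53*.

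Of p53 and its 4 regulators, 1 had a positive and 4 a negative log2 fold change. *Trp53* had 4.33, 4.17 and 4.44 CPM in βiKO and 4.42 and 4.64 CPM in control mice. The groups overlapped and the log2 fold change was -0.07 ± 0.18, with a 95% interval from -0.49 to 0.35. *Mdm2*, both inhibitor and target of p53, had 43.1, 45.7 and 60.2 CPM in βiKO and 39.3 and 40.8 CPM in control mice. Only βiKO mouse 3 was far from the controls, and the log2 fold change was 0.31 ± 0.14 (adjusted p = 0.419 from edgeR) and 0.15 without that mouse. *Mdm4* had 88.4, 94.4 and 81.9 CPM in βiKO and 107 and 105 CPM in control mice (log2 fold change -0.27 ± 0.09, adjusted p = 0.293 from edgeR). The growth suppressor gene *Pml*, whose protein forms nuclear bodies, had 8.67, 8.04 and 7.23 CPM in βiKO and 10.9 and 10.2 CPM in control mice. Both lay lower in every βiKO mouse without being called. *Ppm1d*, a phosphatase gene that closes the p53 response, had a log2 fold change of -0.02 ± 0.13.

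The genes of DNA repair and nucleotide supply lay nearest to no difference. *Ddb2*, *Xpc* and *Ercc5* of nucleotide excision repair, the translesion polymerase gene *Polk* and the ribonucleotide reductase gene *Rrm2b* had log2 fold changes between -0.12 and 0.07, and none was called. Of the genes of metabolism, growth control and RNA, *Dcxr*, a carbonyl and xylulose reductase gene, had 5.82, 6.38 and 7.33 CPM in βiKO and 4.87 and 3.51 CPM in control mice. *Ddit4l*, an mTORC1 inhibitor gene, had 1.53, 1.27 and 1.62 CPM against 0.669 and 1.13 in control mice. Neither overlapped between groups and neither was called, with log2 fold changes of 0.64 ± 0.21 and 0.71 ± 0.35. *Sesn1*, another restraint on mTORC1, differed by 0.03 ± 0.13 and the splicing regulator gene *Zmat3* by -0.28 ± 0.25 on the log2 scale. With mice left out in turn *Zmat3* was between -0.45, without βiKO mouse 1, and -0.038, without βiKO mouse 3. *Gdf15* had 0.485, 0.272 and 0.552 CPM in βiKO and 0.297 and 0.0994 CPM in control mice, levels of few counts whose log2 fold change of 1.14 ± 0.68 did not pass. It was 2.09 without control mouse 1 and 0.54 without control mouse 2.

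In all, 21 of the 33 genes had a positive and 12 a negative βiKO log2 fold change, with a median of 0.14 against 0.01 over all tested genes. The groups did not overlap with βiKO higher for 11 genes, where 15.9% of all tested genes did so, and with βiKO lower for 3 genes (*Pml*, *Mdm4* and *Rrm2b*), where 16.7% did. At an unadjusted p below 0.05 there were 8 genes higher and 2 lower, where 6.23% of all tested genes were higher and 6.62% lower at this threshold. DESeq2, the tool the study used, called 6 genes at the same thresholds, all higher, adding *Phlda3*, *Cdkn1a*, *Aen* and *Trp53inp1*, where it called 0.825% of all the genes it tested higher. The calls of edgeR rested on the few mice: none was left without control mouse 1, without control mouse 2 or without βiKO mouse 2, where the adjusted p of *Ccng1* was 0.189, 0.199 and 0.153 and that of *Eda2r* 0.330, 0.275 and 0.180. In these 3 settings the log2 fold change of *Ccng1* was between 1.05 and 1.11 and that of *Eda2r* between 1.99 and 2.13. Without βiKO mouse 1 and control mouse 1, the mice of highest acinar RNA, the log2 fold changes were 1.01 and 2.23 and none was called (adjusted p = 0.313 for both from edgeR), and with the acinar level as a covariate *Ccng1* alone was called, at 1.08.

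Islets of *Pax4* R192H and WT mice on the HFD were compared to see how the variant acts under metabolic stress. The gene that fell was *Rrm2b*, which encodes the p53-inducible subunit that supplies deoxynucleotides for repair, at 0.656-fold of WT. Of the 32 tested genes it was the only call, where 2.28% of all 19137 tested genes were called. *Rrm2b* (chromosome 15, 37923952 to 37961318) had 21.4, 23.7 and 22.8 CPM in R192H and 31.5, 34.1 and 37.7 CPM in WT mice. The groups lay apart, with a log2 fold change of -0.61 ± 0.11 and an adjusted p of 0.0140 from edgeR. Without WT mouse 3 its adjusted p was 0.0871, and without R192H mouse 1, 2 or 3 it was 0.0805, 0.0539 and 0.0608, at log2 fold changes between -0.64 and -0.54. With the acinar level as a covariate, which separates the genotypes on this diet, it was -0.49 (adjusted p = 0.562 from edgeR), and no tested gene was called. The part of acinar RNA in this difference was not tested further. Other measures also separated the genotypes on this diet. The β cell markers had a mean log2 CPM between 9.48 and 9.70 in R192H and between 9.80 and 10.05 in WT mice. Of the 10, 6 had negative log2 fold changes, with 2 called, and 4 had positive ones. Their summed level lay the other way, between 99293 and 110484 CPM in R192H and between 65469 and 93847 CPM in WT mice. Of 7 α cell markers 2 were called higher and 3 had negative log2 fold changes, with a median of 0.03. The summed level of the α cell markers overlapped between genotypes. Mitochondrial genes took 0.337%, 0.406% and 0.463% of the counts in R192H and 0.497%, 0.683% and 0.597% in WT mice. The part of these measures was not tested.

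*Ccng1*, *Eda2r*, *Cdkn1a* and *Phlda3* overlapped between the R192H and WT mice on the HFD. *Ccng1* had 109, 128 and 115 CPM in R192H and 77.7, 119 and 96.4 CPM in WT mice (log2 fold change 0.26 ± 0.16, adjusted p = 0.441 from edgeR). *Eda2r* had 1.3597, 1.301 and 0.494 CPM in R192H and 0.400, 0.682 and 1.28 CPM in WT mice. *Cdkn1a* had 3.51, 2.94 and 2.07 CPM against 3.04, 1.71 and 2.60. In each of these genes the lowest R192H mouse lay below the highest WT mouse. Leaving out 1 mouse at a time gave log2 fold changes between 0.12 and 0.43 for *Ccng1*, without WT mouse 1 and WT mouse 2, between 0.086 and 0.96 for *Eda2r*, without WT mouse 1 and WT mouse 3, and between 0.0050 and 0.39 for *Cdkn1a*, without WT mouse 2 and R192H mouse 3. *Phlda3* had 1.90, 3.27 and 1.42 CPM in R192H and 1.04, 1.26 and 1.59 CPM in WT mice, with R192H mouse 2 standing highest (log2 fold change 0.75 ± 0.38, adjusted p = 0.357 from edgeR, and 0.35 without this mouse). *Bax* and *Aen* differed by 0.11 ± 0.20 and 0.12 ± 0.18, *Trp53* by 0.15 ± 0.31, and *Zmat3* by -0.25 ± 0.49 on the log2 scale, all with overlap. *Mdm2* had 27.2, 27.4 and 28.3 CPM in R192H and 32.95, 35.8 and 31.4 CPM in WT mice. It was lower in every R192H mouse, without passing the test (log2 fold change -0.27 ± 0.11, adjusted p = 0.227 from edgeR). The largest fold change belonged to *Pmaip1*, which encodes the BH3-only protein Noxa and had 1.00, 0.671 and 0.524 CPM in R192H and 0.320, 0.512 and 0.182 CPM in WT mice. Its log2 fold change was 1.12 ± 0.57 (adjusted p = 0.363 from edgeR), at levels near the floor of detection. *Pidd1*, which encodes a scaffold of caspase-2 activation, differed by 0.65 ± 0.52, and by 1.45 without WT mouse 1 and 0.31 without WT mouse 3. The groups did not overlap with R192H higher for 2 genes (*Ppm1d* and *Pmaip1*), where 13% of all tested genes did so, and with R192H lower for 3 (*Rrm2b*, *Mdm2* and *Plk3*), where 9.89% did. The median log2 fold change was 0.09 against -0.01 over all tested genes. It was between 0.0012 and 0.14 with each mouse left out, and -0.017 with the acinar level as a covariate.

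**Figure D3:**
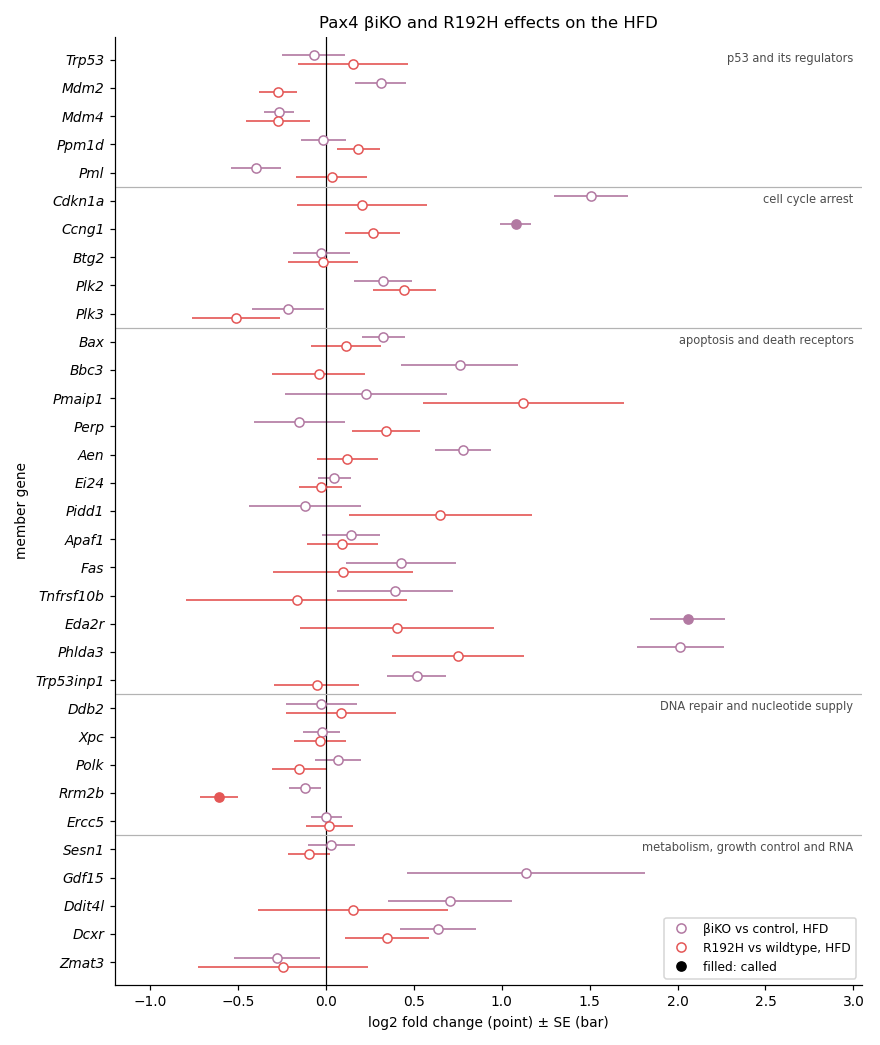
Log2 fold change (points) with its SE (bars) of each gene, for βiKO against control islets (purple; 3 and 2 mice) and R192H against WT islets on the HFD (red; 3 and 3 mice), ordered by role; filled points were called. The purple points of *Eda2r*, *Phlda3*, *Cdkn1a* and *Ccng1* lie between 1.08 and 2.06, the red ones between 0.21 and 0.75, and *Rrm2b* is the filled red point at -0.61.

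Whether the effect of βiKO differed from that of R192H on the HFD was tested in a joint model of both tables, chosen after the data had been seen. These mice also differ in age, in weeks of HFD and in Cre. None of the 33 genes was called, and 1 of 21162 genes was (0.00473%). At an unadjusted p below 0.05 there were 8 genes, where 5.75% of all tested genes were. For *Ccng1*, *Cdkn1a*, *Eda2r* and *Phlda3* the βiKO effect exceeded the R192H effect by 0.81 ± 0.21, 1.31 ± 0.38, 1.66 ± 0.61 and 1.27 ± 0.47 on the log2 scale, with adjusted p-values of 0.816, 0.846, 0.860 and 0.860 from edgeR. *Mdm2*, *Aen* and *Trp53inp1* had differences in the same direction, of 0.58 ± 0.18, 0.66 ± 0.26 and 0.57 ± 0.21. *Rrm2b* differed by 0.49 ± 0.15, being at -0.12 in βiKO and -0.61 in R192H. The median difference was 0.21 over the 33 genes and 0.02 over all tested genes.

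On the SCD no gene of the group was called between R192H and WT islets, as none of the 19137 tested genes was (0%) by edgeR. Of the 32 tested genes, 0 had an unadjusted p below 0.05, as 3.29% of all tested genes had, and DESeq2 called 0 of them and 0.104% of all it tested. The log2 fold changes were negative for 18 and positive for 14 genes, with a median of -0.09 against -0.00 over all tested genes. *Trp53* had 1.73, 1.40 and 1.49 CPM in R192H and 2.19, 2.57 and 2.29 CPM in WT mice. It was lower in every R192H mouse, with a log2 fold change of -0.61 ± 0.32 and an adjusted p of 1.00 from edgeR. It was the only gene of the group whose groups did not overlap, where 4.22% of all tested genes were lower and 3.62% higher in this way. Markers of immune cells were lower in the R192H mice too: those of macrophages summed to between 73.3 and 75.3 CPM against between 108 and 163 in WT mice, and those of T and B cells to between 0.369 and 0.737 against between 3.75 and 19.4. Their part in the difference was not tested. *Pmaip1* and the death receptor gene *Fas* had the next largest differences, of -0.59 ± 0.53 and -0.52 ± 0.39, and both moved with single mice. *Pmaip1* was between -1.34 without R192H mouse 1 and -0.28 without WT mouse 3, and *Fas* between -0.80 without R192H mouse 3 and -0.058 without WT mouse 2. Several genes stood high in single mice of this diet. *Zmat3* had 13.2 CPM in WT mouse 2 and 15.4 in R192H mouse 3, against between 3.23 and 6.74 in the other 4. The same mice were the highest for *Cdkn1a*, at 4.37 and 3.44 CPM, for *Eda2r*, at 2.04 and 1.53 CPM, and for *Trp53inp1*, at 121 and 92.6 CPM. The summed level of 9 stromal and pericyte markers was also highest in them, at 410.5 and 246.9 CPM against between 131 and 170 in the other 4, and its part in these levels was not tested.

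Whether the genotype effect changed with diet was tested as an interaction. None of the 32 genes was called, against 25 of all tested genes (0.131%). The 3 largest interactions were those of *Pmaip1* (1.71 ± 0.78, adjusted p = 0.436 from edgeR), *Phlda3* (1.24 ± 0.53, adjusted p = 0.406) and *Plk2* (0.81 ± 0.25, adjusted p = 0.227). At an unadjusted p below 0.05 the genotype effect was more positive on the HFD for 4 genes, these 3 and *Ccng1* (0.51 ± 0.22), and more negative for 2, *Mdm2* and *Rrm2b* (-0.38 ± 0.15 and -0.47 ± 0.15). Of all tested genes 6.84% were more positive and 4.38% more negative at this threshold. DESeq2 called 0 of the genes and 1.56% of all it tested. The median interaction was 0.11, against -0.01 over all tested genes.

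HFD and SCD were compared within each genotype to see how diet, together with age, moved these genes. In WT islets none of the 32 was called by edgeR, against 0.371% of all tested genes, and 4 had an unadjusted p below 0.05, *Pmaip1*, *Trp53inp1*, *Plk2* and *Rrm2b*, all lower on the HFD, where 8.37% of all tested genes were lower and 6.86% higher at this threshold. DESeq2 called *Trp53inp1* and *Plk2* lower, as it did 1.96% of all the genes it tested. *Trp53inp1* had 48.0, 41.1 and 47.2 CPM on the HFD and 55.8, 121 and 67.4 CPM on the SCD. The groups lay apart but WT mouse 2 on the SCD stood far above the rest (log2 fold change -0.84 ± 0.24, adjusted p = 0.135 from edgeR), and without it the log2 fold change was -0.44. Other markers lay in the same direction. All 9 stromal and pericyte markers and 9 of 10 macrophage markers had negative log2 fold changes, with medians of -1.74 and -0.92. So had all 6 tested T and B cell markers and 7 of 8 duct markers, while 8 of 10 β cell and 19 of 25 acinar markers had positive ones. Mitochondrial genes took between 0.497% and 0.683% of the counts on the HFD and between 0.720% and 1.315% on the SCD. The part of these measures was not tested. *Plk2* had 16.8, 14.1 and 13.3 CPM on the HFD and 23.2, 18.9 and 28.6 CPM on the SCD (log2 fold change -0.68 ± 0.18, adjusted p = 0.109 from edgeR). *Pmaip1* had 0.320, 0.512 and 0.182 CPM on the HFD and 1.04, 0.912 and 1.62 CPM on the SCD. Its groups also lay apart, with a log2 fold change of -1.83 ± 0.56 and an adjusted p of 0.157 from edgeR. *Ddit4l* differed by -0.73 ± 0.53. No gene was higher on the HFD without overlap, where 8.47% of all tested genes were, and 5 were lower, where 9.46% were. The median log2 fold change was -0.10 against 0.01 over all tested genes.

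In R192H islets *Mdm4* and *Rrm2b* fell on the HFD, 2 of the 32 genes against 15.7% of all tested genes. *Mdm4* (chromosome 1, 132959484 to 133030561) had 36.6, 26.4 and 33.1 CPM on the HFD and 52.0, 52.0 and 66.4 CPM on the SCD. The groups lay apart, with a log2 fold change of -0.82 ± 0.18 and an adjusted p of 0.0088 from edgeR. *Rrm2b* had 21.4, 23.7 and 22.8 CPM on the HFD and 36.0, 39.2 and 37.4 CPM on the SCD. Each HFD mouse was lower than each SCD mouse, with a log2 fold change of -0.73 ± 0.11 and an adjusted p of 0.00096 from edgeR. *Trp53inp1* had 42.8, 41.8 and 46.6 CPM on the HFD and 58.0, 64.1 and 92.6 CPM on the SCD (log2 fold change -0.71 ± 0.24, adjusted p = 0.0618 from edgeR). The stromal and pericyte markers lay lower on the HFD here too, at a mean log2 CPM between 1.85 and 2.44 against 2.86 and 3.82 on the SCD, and their part was not tested. *Phlda3* was at 0.83 ± 0.38 (adjusted p = 0.147 from edgeR), and at 0.43 without R192H mouse 2 on the HFD. Groups did not overlap with the HFD higher for 7 genes, where 21.3% of all tested genes did so, and lower for 8, where 20.6% did. The median log2 fold change was -0.01 against -0.06 over all tested genes. Without R192H mouse 2 on the HFD *Mdm4* was at -0.70 (adjusted p = 0.0504 from edgeR). With the acinar level as a covariate *Mdm4* was at -1.19 and *Rrm2b* at -0.59 (adjusted p = 0.0948 and 0.157 from edgeR). This level separated the diets in this genotype, and 118 of all tested genes were called with it. Mitochondrial genes took between 0.337% and 0.463% of the counts in the HFD and between 0.784% and 0.991% in the SCD mice of this genotype. Of 10 β cell markers 3 were called higher and 2 lower. Of 7 α cell markers 2 were called higher, while 4 had negative log2 fold changes, with a median of -0.12 over the list. The part of these measures was not tested.

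**Figure D4:**
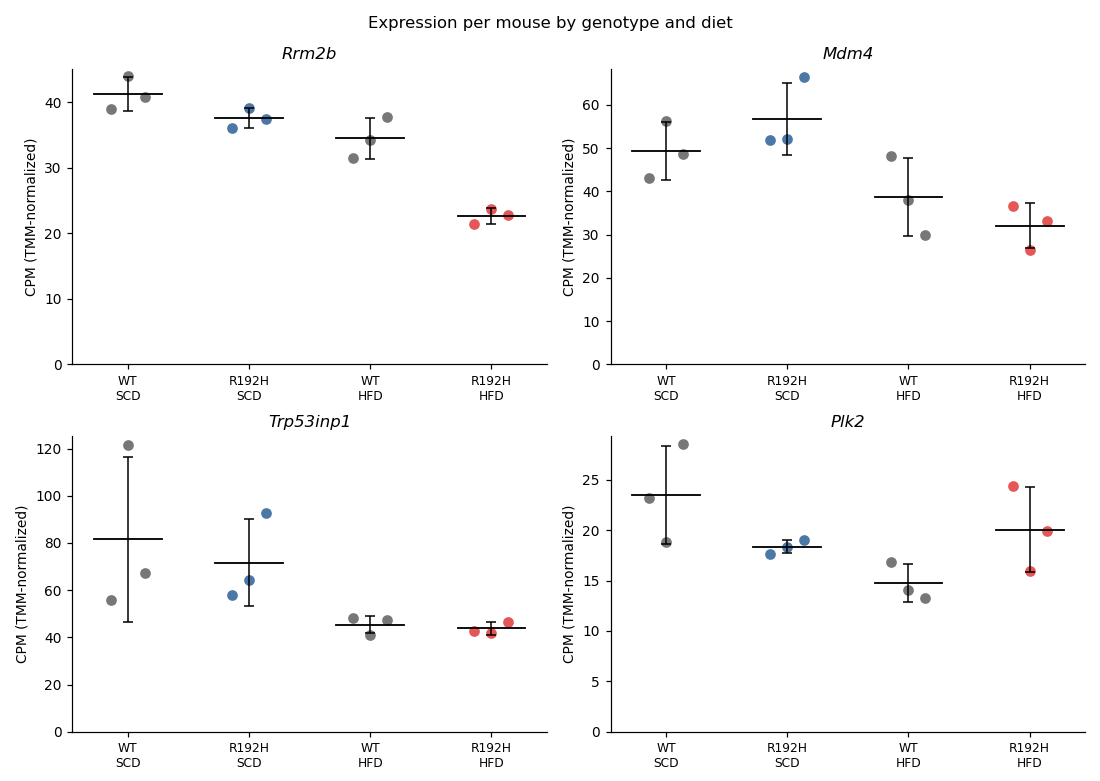
CPM of *Rrm2b*, *Mdm4*, *Trp53inp1* and *Plk2* in each mouse of the first table (points), with the group mean (line) and SD (bar). The 3 R192H mice on the HFD lie between 21.4 and 23.7 CPM for *Rrm2b*, below the 9 other mice, and both HFD groups lie below both SCD groups for *Trp53inp1*.

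The rest of the pathway was read from lists that share no gene with the 33. In βiKO islets none was called of the 18 DNA damage sensors and kinases, the 19 tested p53 relatives, cofactors and modifiers, the 37 tested other p53 targets, the 11 tested BCL2 family genes and the 10 tested senescence-linked genes. At an unadjusted p below 0.05, edgeR gave 5 higher and 3 lower of the other p53 targets, and 2 higher and 6 lower of the relatives, cofactors and modifiers, beside the 6.23% and 6.62% of all tested genes. Of 17 cell cycle genes that are repressed downstream of p21, none was called in βiKO islets and the median log2 fold change was 0.59. Their summed level was 175.5 CPM in the highest βiKO mouse and 77.2 in the lowest, against 84.7 and 97.7 in control mice, so that it did not separate the groups. In R192H islets on the HFD against WT, where 2.28% of all tested genes were called, 2 of the 18 DNA damage genes were called, both higher. They were *H2afx*, which encodes the histone marked at breaks (log2 fold change 0.83 ± 0.18), and the repair gene *Brca1* (1.56 ± 0.31). Of these 18 genes 10 had negative log2 fold changes, with a median of -0.03 over the list. None of the other p53 targets, the relatives, cofactors and modifiers, the BCL2 family and the senescence-linked genes was called in this comparison. All 17 cell cycle genes had positive log2 fold changes there, with a median of 1.64, and the replication licensing genes *Mcm2* and *Mcm5* were called. All 25 acinar markers had positive log2 fold changes there as well, with a median of 1.53 and 7 called. With the acinar level as a covariate none of *H2afx*, *Brca1*, *Mcm2* and *Mcm5* was called, as no tested gene was. The cell cycle median was 1.00 there, with all 17 still positive. The acinar level separated the genotypes on this diet, so this setting cannot tell its part from that of genotype. On the SCD 16 of the 17 cell cycle genes had negative log2 fold changes for R192H against WT, with a median of -0.36 and none called. From SCD to HFD in WT islets all 17 were positive with a median of 0.39, and none was called.

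From SCD to HFD in R192H islets, where 9.75% of all tested genes rose and 5.91% fell, all 17 cell cycle genes rose, with a median log2 fold change of 2.34. Among them were *Plk1*, a mitotic kinase gene (3.22 ± 0.70), *Cdc25c* (3.03 ± 0.76), *Ccnb1* (2.94 ± 0.50) and *Birc5* (2.87 ± 0.57). Of the 18 DNA damage genes 4 rose and 3 fell. The damage kinase genes *Atm* and *Atr* were lower by -1.13 ± 0.15 and -0.98 ± 0.13 on the log2 scale, while *Clspn* and *Chek2* were higher by 2.702 ± 0.57 and 1.79 ± 0.50. Of the 37 other p53 targets 7 rose and none fell, among them *Psrc1* (2.02 ± 0.61), *Ckap2* (2.01 ± 0.51), *Gls2*, a mitochondrial glutaminase gene (1.89 ± 0.36), and *Nupr1* (1.13 ± 0.26). *Psrc1* and *Ckap2* encode proteins of the mitotic spindle. Of the 19 relatives, cofactors and modifiers 2 rose and 1 fell, shares near those of all genes. *Rpl5* and *Rpl11*, ribosomal proteins that bind Mdm2, rose (0.62 ± 0.15 and 0.67 ± 0.16) and *Sirt1* fell (-0.76 ± 0.16). *Bad*, 1 of 11 genes of the BCL2 family, rose (0.64 ± 0.18), and so did 4 of 10 senescence-linked genes, *Cdkn2c* (1.21 ± 0.16), *Hmgb2*, *Glb1* and *Igfbp3*. Acinar markers moved with these genes, 23 of 25 being called higher in the same comparison. With the acinar level as a covariate 1 of 17 cell cycle genes (*Mcm2*) and 1 of 18 DNA damage genes (*H2afx*) were called. None was called of the other p53 targets, the relatives, cofactors and modifiers, the BCL2 family and the senescence-linked genes. Of all 19137 tested genes 118 were called in this setting. The acinar level separated the 2 diets in this genotype, so their parts cannot be told apart. The median rose from 0.17 to 0.50 for the senescence-linked genes and from 0.07 to 0.21 for the other p53 targets. It fell to -0.04, -0.22 and -0.09 for the DNA damage genes, the relatives, cofactors and modifiers, and the BCL2 family. All 17 cell cycle genes were still positive there, with a median of 1.97.

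**Figure D5:**
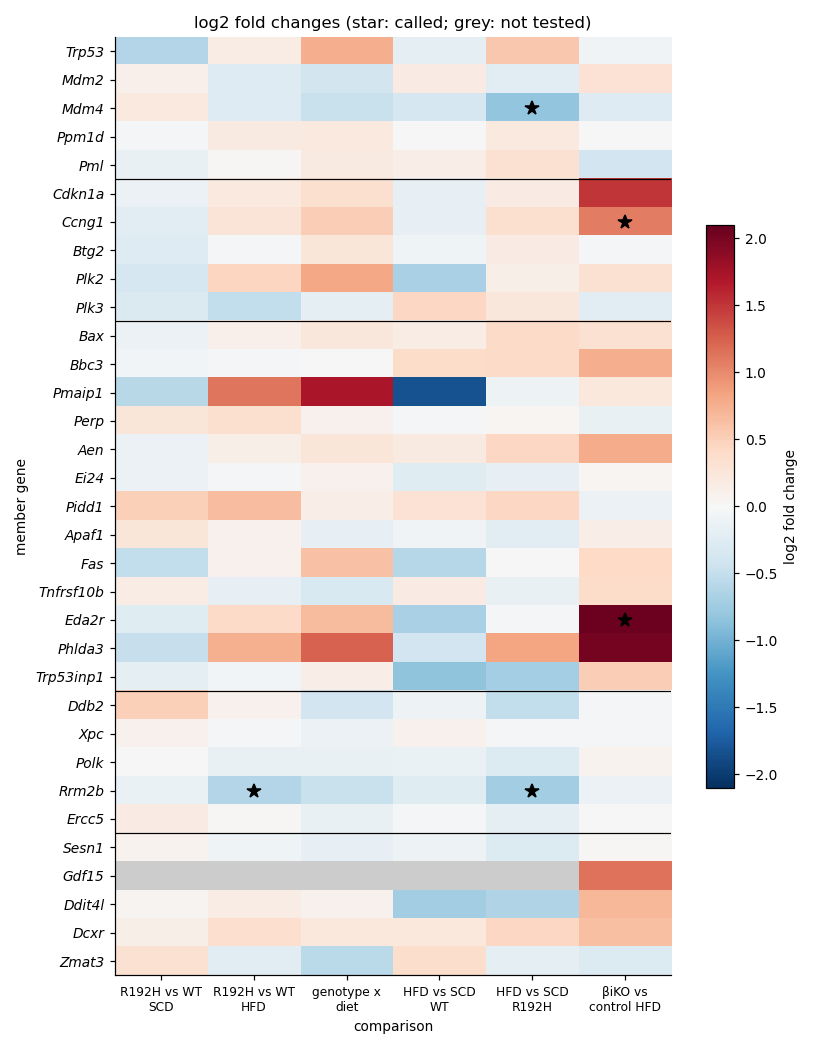
Log2 fold change of each gene (colour) in each of the 6 comparisons (columns), with genes ordered by role; stars mark called genes and grey marks *Gdf15*, which was not tested in the first table. The 5 stars are *Rrm2b* and *Mdm4* in the first table and *Ccng1* and *Eda2r* in the second, and the strongest red outside the βiKO column is *Pmaip1* in the interaction, at 1.71.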

How the data were processed

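Islet RNA of 17 mice was analysed, 12 in the first table and 5 in the second, with each library taken as 1 mouse. The deposited tables hold expected counts for each gene, without scaling for depth. The authors made them from stranded libraries of total RNA, with STAR 2.7.1 for alignment to mm10, RSEM 1.3.3 for transcript abundance and tximport 1.36.0 for the sum over a gene's transcripts. The annotation release was not given in the sources used here. RSEM divides a read among the transcripts it could come from, so the expected counts are not whole, and here they were rounded. The tximport length offsets were not applied.

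Groups were taken from the sample titles, which number biological replicates, and no replicate was left out. Each replicate was taken as 1 mouse, which the titles do not state. Each table was tested by edgeR 4.0.16 (quasi-likelihood F-test, R 4.3.3) with a coefficient per group, TMM factors and a filterByExpr minimum count of 10. Benjamini-Hochberg adjustment covered all tested genes of a table, and calls needed an adjusted p below 0.05 with a log2 fold change beyond 0.5 in size. SE is the size of the log2 fold change divided by the square root of F. Intervals use the t quantile at the residual plus prior degrees of freedom. CPM uses TMM-scaled libraries. Symbols, coordinates and exon lengths came from GENCODE M21 (GRCm38), and promoters from RefSeq. The members and the lists were chosen with earlier results of these data known. The rule for named genes took every called member, the 3 largest changes of each comparison, 9 core genes, and up to 4 called genes of each other list and comparison. Members named beyond it were chosen after their values were seen.

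The alternatives tried were scaling by RLE, testing without a filter or with at least 10 counts in every mouse, DESeq2 1.42.0, a replicate block, models of only the 2 groups compared, leaving out the 2 most abundant genes, the mean log2 CPM of acinar markers as a covariate, calls without the fold change threshold, other motif rules, and leaving out each mouse. Leaving out both mice of highest acinar level, the joint model of both tables and the acinar covariate for the other lists were added after seeing the data. Scripts were tested on simulated data. A count of 3 is between 7.03e-06% and 1.24e-05% of a library, which covers counting error only.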

Additional observations from a re-analysis of the deposited data

How the results depend on the processing

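In βiKO islets, genes of the p53 group called numbered 2, and 6 by DESeq2 and without the filter, 4 with the replicate block, 1 with the acinar covariate and 0 without both mice of highest acinar level, where their median moved from 0.14 to 0.34. With each mouse left out in turn, between 0 and 2 were called, at medians between 0.026 and 0.34; a lone control was assumed to vary like the βiKO mice. In R192H islets on the HFD the 1 call became 0 with the acinar covariate, where the median was -0.017, and 0 to 1 with each mouse left out, at medians between 0.0012 and 0.14. With mice left out, *Bax* was between -0.070 and 0.22 and *Zmat3* between -0.47 and 0.29, both turning sign without WT mouse 1, and *Trp53* between -0.15 and 0.34, turning without WT mouse 2. The interaction gave 1 call (*Plk2*) without the filter, and its median was between 0.0038 and 0.19 with mice left out. From SCD to HFD, WT islets gave 2 calls without the filter and by DESeq2, with medians between -0.20 and -0.062 when mice were left out. R192H islets gave 0 with the acinar covariate, at a median of -0.048, and between 1 and 2, at medians between -0.028 and 0.086, with mice left out. On the SCD the median was between -0.10 and 0.023 with mice left out. The cause of these moves was not tested, other than that leaving mice out leaves fewer samples.

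Counts over all genes moved as well. For R192H against WT on the SCD they were 0, and 261 without the filter, 23 by DESeq2 and 1 with only these groups. On the HFD they were 437, and 1279 without the filter, 920 by DESeq2, 147 with the block and 0 with the acinar covariate. The interaction gave 25, and 708, 311, 0 and 0 in the same order, and 80 with at least 10 counts in every mouse. The diet gave 71 in WT, and 924 without the filter, 545 by DESeq2, 22 with the block, 42 with the acinar covariate, 115 with at least 10 counts in every mouse and 1 with only these groups, and in R192H 2996, and 118 with the acinar covariate. βiKO gave 18, and 697, 250, 88 and 11 in the first order, and 2 without both mice of highest acinar level. Replicate numbers did not pair the mice: same-numbered correlations ran from -0.296 to 0.193, so the replicate block is given here only. The 2 most abundant genes, unnamed in the first table and *Ins2* and *Iapp* in the second, changed no call when left out. The promoter share of 39.4% with 1 match became 63.6% with up to 1 mismatch, 3.03% for pairs and 9.09% for pairs with up to 1 mismatch each.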
